A study of Mus musculus with 12 samples.

Results

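The comparison described here is that of Topaz1-/- (KO) with wild-type (WT) testes 15 days after birth (P15). It rests on 6 of the 12 arrays of the series, 3 per genotype, taken by their genotype and age labels and compared over all 45281 probes. Each array carried total RNA of the testis of C57Bl/6N mice, and the series' text calls the 3 samples of a condition biological repeats. The labels give no other allele, Cre line or treatment for either genotype, and how the Topaz1 allele was inactivated, or whether a sample pooled animals, stands in no source used here. The other 6 arrays are KO and WT testes 20 days after birth (P20), and they enter only to estimate the spread of each probe and to test whether the genotype difference depends on age. Topaz1 lies at chr9:122747199-122802135 of assembly GRCm38.p6. In the annotation used here 0 probes carried its symbol and 0 its accession, so the genotype of the arrays could not be checked on the targeted transcript.

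Topaz1 encodes a germ cell protein that the series title names as required for male meiosis. In the first wave of mouse spermatogenesis, germ cells enter meiosis together, so that a P15 testis holds spermatogonia, early spermatocytes and the first pachytene spermatocytes but hardly any later germ cells. These lie among Sertoli cells, which nourish them and pass iron to them on secreted transferrin, and outside the tubules lie Leydig cells, peritubular muscle cells, vessels and macrophages. Interferons, the cytokines of antiviral defence, act on such cells through receptors whose signal brings STAT2 and IRF9 together in the nucleus. There they bind a response element with repeated GAAA cores in the promoters of their target genes, among them antiviral effectors and the guanylate-binding and immunity-related GTPases.

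Values are log2(intensity + 50) after the authors' quantile normalization. On this scale background, estimated on each array from the values below the mode of its probes, ended at 7.53, and 49.5% of probes lay above it. Precision is limited by having 3 arrays in a group. Before normalization the 75th percentile of intensity was 284, 297 and 287 on WT P15 replicates 1 to 3 and 269, 245 and 225 on KO P15 replicates 1 to 3, so that the KO arrays were all dimmer. Scaling by that percentile in place of quantile normalization moved the median log2 difference of all genes from 0.0060 to 0.10. Spearman's coefficient between any pair of P15 arrays, over probes that are not independent of each other, was 0.897 to 0.923. The first principal component of the 6 arrays carried 42.6% of the variance, and KO P15 replicate 1 lay at -13.7 among the WT arrays (-16.0 to -0.63), apart from KO replicates 2 and 3 at 9.29 and 30.9. In whole testes, fewer cells of a type and less RNA per cell cannot be told apart.

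Testing over all probes, on both sides, left a difference in 2 of them. In limma, 0 probes were higher in KO testes (0% of those tested) and 2 were lower (0.00442%), while 3438 had an unadjusted p under 0.05. The unnamed probe ILMN_1257177 read 9.23, 9.31 and 9.75 on the WT P15 arrays and 7.58, 7.54 and 7.61 on the KO P15 arrays. All KO values sat at the edge of background, far below every WT value. The log2 difference was -1.85 ± 0.11 (SE, n = 3 per group, adjusted p = 0.000337), a 3.61-fold fall. At P20 it stood at 10.2 to 10.3 in WT and again at 7.52 to 7.56 in KO testes. The annotation gives no gene for it, and whether it reads Topaz1 was not tested. A second unnamed probe, ILMN_2533559, had a like pattern at a lower level, with 7.87, 7.98 and 8.11 in WT and 7.43, 7.38 and 7.41 in KO testes at P15. The WT arrays were all above background and none of the KO arrays was, so it was at least 1.37-fold lower in KO. It missed the threshold (-0.58 ± 0.07, adjusted p = 0.0737).

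Trf, the gene of the iron carrier transferrin, was the named gene that fell. Its probe read 9.59, 9.44 and 9.37 on WT P15 replicates 1 to 3 and 8.85, 8.83 and 8.76 on KO P15 replicates 1 to 3. The KO arrays lay close together and below every WT array. The log2 difference was -0.65 ± 0.06 (SE, n = 3 per group, adjusted p = 0.0191), or 1.57-fold. WT testes at P20 read 8.96, 8.90 and 9.02, nearer to the P15 KO than to the P15 WT level, and KO testes at P20 read 8.71, 8.76 and 8.88. The genotype difference at P20 was -0.18 ± 0.06 (adjusted p = 0.265), and the test of the difference between the ages gave 0.48 ± 0.09 (adjusted p = 0.109). The call at P15 was lost when 1 of 4 arrays was left out. Without WT P15 replicate 2 the adjusted p was 0.157, and without the second KO array of P20 it was 0.0695. Without the second or the third KO array of P15 it was 0.0908 and 0.156. Trf is on chromosome 9 as Topaz1 is, 19.5 Mb from it (chr9:103208876-103230286, GRCm38.p6).

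**Figure D1:**
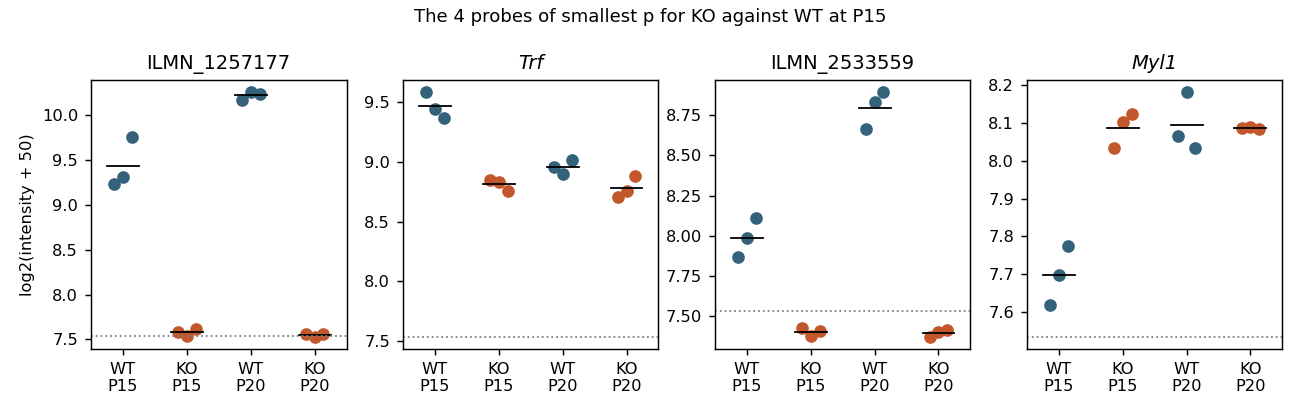
The 4 probes of smallest p at P15, with log2(intensity + 50) of each array on the vertical axis (3 points per group, bar at the mean, dotted line at the end of background). ILMN_1257177 and ILMN_2533559 were near or below background in KO at both ages, Trf was lower in KO at P15, and Myl1 (log2 difference 0.39, adjusted p = 0.119) was higher in KO at P15.

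Of the other 33 measured iron genes none passed, and 1 of 34 fell (Trf) against 0.00525% of all genes in either direction. The median of the list was -0.034, or 0.024 with 75th percentile scaling, beside 0.0060 and 0.10 for all genes, and 11 members had a positive difference. Among receptors and carriers, Tfrc, which takes up transferrin-bound iron, read 11.1, 11.3 and 11.1 in WT and 11.2, 11.1 and 10.2 in KO testes (-0.36 ± 0.24), where KO replicate 3 alone was low. Slc11a2, the endosomal iron transporter, had 3 probes that did not move together, with -0.14 ± 0.08 for the brightest, -0.32 ± 0.05 for the next and 0.16 ± 0.11 for the dimmest. Its middle probe read 9.11, 9.13 and 9.07 in WT and 8.79, 8.71 and 8.84 in KO testes, without overlap, and had an adjusted p of 0.352. Slc40a1, the iron exporter ferroportin, differed by -0.13 ± 0.15. Among storage genes, Fth1, the ferritin heavy chain, read 14.1, 14.3 and 14.3 in WT and 14.4, 14.5 and 14.3 in KO testes (0.13 ± 0.07), and Ftl1, the light chain, had 0.47 ± 0.23 with KO replicate 1 below every WT array. Ireb2, a sensor that controls transferrin receptor and ferritin transcripts, had -0.38 ± 0.20. The acute phase siderophore binder Lcn2 had the most negative value of the list, -0.72 ± 0.36, carried by WT replicate 2 (9.55 against 7.85 and 8.07 on the other WT arrays). KO arrays lay below all WT arrays for 3 members, Trf, Slc11a2 and Slc39a8, which is 8.82% of the list against 4.89% of all genes.

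None of the 12 largest negative differences in named genes with separate groups passed the test, and 2 of the 12, Ifit3 and Usp18, are in the interferon response list. Lgals3bp and Ifi27l2a, outside that list, had the largest values. Lgals3bp, a secreted glycoprotein that interferon induces, read 10.4, 9.70 and 9.44 in WT and 8.32, 8.55 and 8.58 in KO testes, a log2 difference of -1.37 ± 0.22 (adjusted p = 0.372). Every KO array was below every WT array, and WT replicate 1 was the highest of all. Ifi27l2a, an interferon-inducible membrane protein, read 9.85, 9.21 and 9.09 against 8.07, 8.19 and 8.19 (-1.24 ± 0.18, adjusted p = 0.343). Ifit3, which helps to hold back viral RNA, read 10.0, 8.28 and 8.42 against 7.97, 7.88 and 7.88 (-1.001 ± 0.44, adjusted p = 0.650). Its size came largely from WT replicate 1, and without that array it was -0.44. Usp18, the protease that removes ISG15 from proteins and damps interferon signalling, read 9.76, 8.85 and 8.97 against 8.47, 8.51 and 8.02 (-0.86 ± 0.31). Without WT replicate 1 it was -0.57, and Lgals3bp and Ifi27l2a were -1.09 and -1.004. WT testes at P20 read 8.55, 8.59 and 8.55 for Lgals3bp and 8.31, 8.32 and 8.23 for Usp18, near the P15 KO levels. For Ifi27l2a they read 7.86, 8.05 and 8.24, and for Ifit3 8.20, 8.01 and 8.10. In each of these genes the WT arrays of P20 lay below those of P15.

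Of 26 interferon response genes written in the list, 24 were measured, 16 of them above background in a P15 group, and 0 passed. The list was written with earlier results of these data known, and its members answer to shared signals, so that they are not independent. The median log2 difference was -0.21, beside 0.0060 for all genes, and 4 members had a positive value. KO arrays lay below all WT arrays for 13 members, or 54.2% of those measured, against 4.89% of all genes. These 13 were Ifit2, Ifit3, Isg15, Stat2, Usp18, Oasl2, Mx2, Bst2, Ifi35, Dhx58, Ifi213, Gbp2 and Gbp3. The mean deviation of the list from its 6-array level was 0.47, 0.03 and 0.07 on WT replicates 1 to 3 and -0.24, -0.12 and -0.21 on the KO replicates. Without WT replicate 1 the median was -0.13. The median was negative under each of 14 settings, from -0.39 to -0.13. At P20 the median of the list was 0.18, with KO P20 replicate 2 above all other P20 arrays for 17 members.

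By role, the members ran as follows. Among the signal carriers, Stat2 read 8.26, 7.99 and 7.98 in WT and 7.91, 7.78 and 7.84 in KO testes (-0.23 ± 0.21), and Irf7, the amplifier of the response, had -0.16 ± 0.09 with groups that overlapped. Among effectors, Isg15, the ubiquitin-like modifier, read 8.44, 7.74 and 7.83 against 7.54, 7.62 and 7.59 (-0.42 ± 0.16, and -0.20 without WT replicate 1). Bst2, the tether that keeps virions on the cell surface, read 8.77, 8.27 and 8.33 against 7.60, 8.13 and 7.94 (-0.57 ± 0.17, adjusted p = 0.483). Oasl2, of the oligoadenylate synthetase family, read 9.90, 9.48 and 9.51 against 9.02, 9.17 and 9.02 (-0.56 ± 0.35). Ifi35 and Mx2 had the smallest p-values of the list, with -0.27 ± 0.06 (adjusted p = 0.395) and -0.18 ± 0.05 (adjusted p = 0.454). Ifit1, Ifih1, Ifi204, Ifi205, Ifi202b, Oas1a and Mx1 stayed near background with differences from -0.041 to 0.036.

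Among the interferon-inducible GTPases, Gbp3 read 9.55, 8.88 and 9.13 in WT and 8.43, 8.61 and 8.50 in KO testes, and Gbp2 read 9.48, 8.97 and 8.84 against 8.63, 8.80 and 8.64. Their differences of -0.67 and -0.40 carried SEs of 0.62 and 0.94, because the spread is pooled over all 12 arrays. On KO P20 replicate 2 Gbp2 reached 12.99, against at most 8.604 on the other P20 arrays, and that array was above all other P20 arrays for 17 of the 24 members. Without it the adjusted p of Gbp3 was 0.535 and that of Gbp2 0.645. With the P15 arrays alone the SEs were 0.17 for each, and the adjusted p was 0.826 and 0.827. Irgm1, a GTPase of the immunity-related family, ran the other way, with 12.6, 12.8 and 12.8 in WT and 12.99, 13.29 and 13.08 in KO testes (0.37 ± 0.22), although 2 of its 3 probes had the opposite sign. Its relative Irgm2, outside the list, read 9.60, 8.86 and 8.82 against 8.21, 8.46 and 8.29 (-0.77 ± 0.74). With the P15 arrays alone the SEs of Irgm2, Oasl2 and Stat2 were 0.22, 0.12 and 0.09, and the adjusted p was 0.826 for each.

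**Figure D2:**
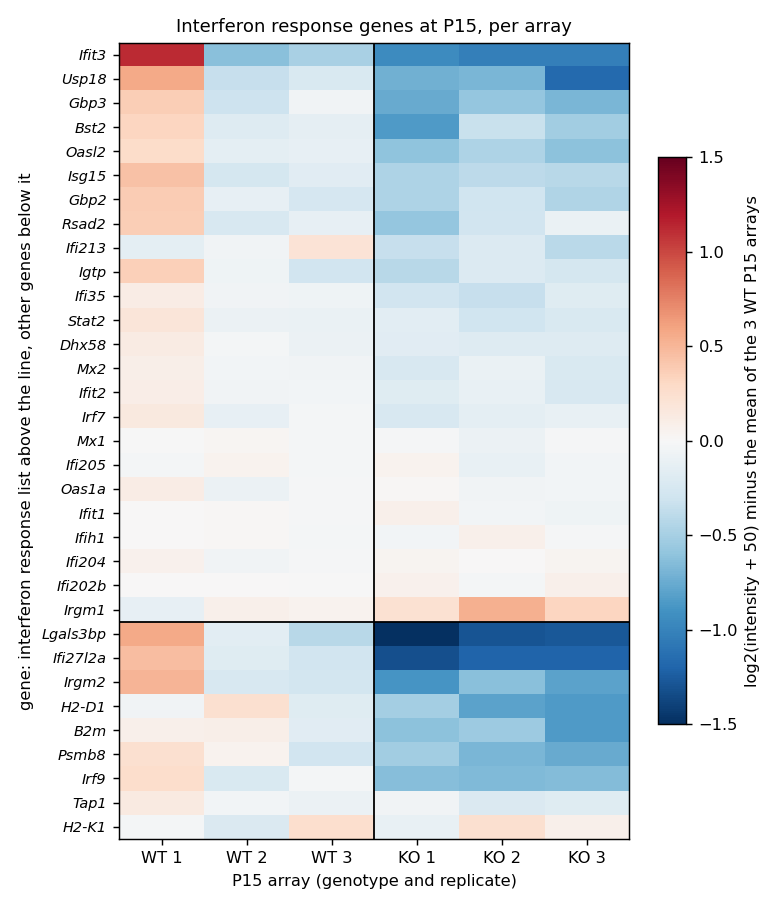
Interferon response genes on the 6 P15 arrays, as log2(intensity + 50) minus the mean of the 3 WT P15 arrays (colour, clipped at 1.5). The 24 list members stand above the line, and 9 related genes, chosen after their values were seen or by the rule for the largest differences, below it. WT replicate 1 was the highest array for most members, and the 3 KO arrays were low for Ifit3, Usp18, Gbp3, Lgals3bp and Ifi27l2a.

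The promoters of these genes are shown for the response element that the background above describes. The window searched ran from 250 bases before to 50 bases after the start of each gene (RefSeq, GRCm38.p6). The pattern of GAAA, any 2 bases and GAAA again, on either strand with overlapping matches counted, was in 3.44% of all 32851 windows and in 3.99% of genes with a window. It was in 14 of the 19 interferon list genes that had a window (73.7%) and in 7 of the 10 of them with all KO arrays below WT (70.0%). The list was written as interferon response genes, so its high share follows from that choice and says nothing about these arrays. The share among members lower in KO was no higher than that of the list. Among the genes of largest difference it was in 2 of 10 with a negative and in 0 of 9 with a positive value. A match is a description of letters and not evidence of binding. Capitals mark the pattern, and where it lies on the other strand it reads TTTC, 2 bases and TTTC.
The stretch of Bst2 is chr8:71537557-71537632 on the minus strand, and its matches lie from 130 to 115 bases before the start. That of Gbp2 is chr3:142620574-142620643 on the plus strand, with the match from 59 to 50 bases before the start. Those of Gbp3 and Ifit3 are chr3:142559969-142560043 and chr19:34583343-34583446 on the plus strand, with 2 matches each. That of Irgm2 is chr11:58214883-58214952 on the plus strand, and that of Isg15, with 3 matches, is chr4:156200845-156200926 on the minus strand.
Bst2: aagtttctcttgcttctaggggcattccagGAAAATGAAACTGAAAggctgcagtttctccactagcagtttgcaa
Gbp2: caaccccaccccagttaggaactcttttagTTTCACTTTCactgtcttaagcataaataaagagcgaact
Gbp3: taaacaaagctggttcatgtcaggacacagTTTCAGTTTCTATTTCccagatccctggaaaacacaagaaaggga
Ifit3: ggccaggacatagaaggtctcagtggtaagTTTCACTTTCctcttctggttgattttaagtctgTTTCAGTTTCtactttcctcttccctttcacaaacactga
Irgm2: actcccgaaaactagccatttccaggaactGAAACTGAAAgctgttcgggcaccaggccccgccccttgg
Isg15: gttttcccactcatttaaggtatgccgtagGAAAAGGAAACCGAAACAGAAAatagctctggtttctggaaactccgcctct

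Some genes of class I antigen presentation, and Irf9, are given by value. They form no list, most were singled out after their values were seen, and none passed. H2-D1, a class I heavy chain, read 11.3, 11.6 and 11.1 in WT and 10.8, 10.5 and 10.5 in KO testes (-0.72 ± 0.14, adjusted p = 0.372). A second probe of H2-D1 well above background gave -0.67 ± 0.13. B2m, the light chain of class I molecules, read 12.5, 12.5 and 12.3 against 11.8, 11.9 and 11.6 (-0.67 ± 0.15, adjusted p = 0.375). Psmb8, a subunit of the immunoproteasome, read 8.97, 8.78 and 8.43 against 8.21, 8.04 and 7.97 (-0.66 ± 0.31). Irf9, the DNA-binding partner of STAT2, read 9.98, 9.49 and 9.69 against 9.08, 9.05 and 9.06 (-0.65 ± 0.22, adjusted p = 0.553). The groups of these 4 were separate, whereas H2-K1 (0.071 ± 0.12) and the peptide transporter Tap1 (-0.15 ± 0.24) overlapped. With the P15 arrays alone the SEs of Psmb8 and Irf9 were 0.14 and 0.12, and the adjusted p was 0.826 for both.

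In the list of 14 class II antigen presentation genes 0 passed, 13 had a negative value and the median was -0.070, beside 0.0060 for all genes. With 75th percentile scaling, which lifts all genes, these were 0.014 and 0.10. All KO arrays lay below WT for 3 (21.4%, against 4.89% of all genes), Cd74, H2-DMa and H2-DMb2. Cd74, the invariant chain, read 8.73, 8.97 and 8.50 in WT and 7.99, 8.37 and 8.06 in KO testes (adjusted p = 0.395). H2-Ab1, a class II beta chain, read 9.14, 9.18 and 8.84 against 8.69, 8.98 and 8.57, with overlap (-0.30 ± 0.11). The macrophage and leukocyte list had a median of -0.051 over 25 members, 9 of them positive and 0 past the test. All KO arrays lay below WT for 3 of them (12.0%), Laptm5, Fcgr3 and Coro1a, and above WT for 0. Its mean level ranged from -0.02 to 0.09 on WT and from -0.13 to 0.03 on KO arrays. Of its defining markers, Cx3cr1, the fractalkine receptor, read 8.21, 8.13 and 8.12 against 7.89, 8.15 and 7.83 (-0.20 ± 0.07). The part of leukocyte content in the interferon and class I values was not tested.

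The remaining genes of the 12 largest negative differences belong to no single list. Among genes above background in a P15 group, KO arrays lay below all WT arrays in 5.35% and above them in 7.23%, so that the largest of each were drawn from many. Chst1, a carbohydrate sulfotransferase, read 8.64, 9.26 and 10.2 in WT and 8.24, 8.49 and 8.58 in KO testes (-0.93 ± 0.30, adjusted p = 0.532), with WT arrays spread over more than their gap to KO. Plac8, a small cysteine-rich protein, read 10.1, 9.74 and 9.34 against 8.98, 9.16 and 8.49 (-0.84 ± 0.27). Hnrnpa2b1, an RNA-binding protein of splicing, read 12.2, 12.4 and 12.1 against 12.0, 11.2 and 11.2 (-0.78 ± 0.18), so that KO replicate 1 lay nearest to WT. Its other 4 probes were at or near background. Idh1, the cytosolic isocitrate dehydrogenase, Srp54a, of the signal recognition particle, and Ppp3r1, the regulatory subunit of calcineurin, had -0.75 ± 0.20, -0.73 ± 0.16 and -0.71 ± 0.17. In all 3 of them KO replicate 1 was the KO array nearest to WT. For Ppp3r1, 1 of 2 probes had the opposite sign. Across the 12 genes the adjusted p ran from 0.343 to 0.882. At P20, in arrays whose values do not enter these P15 differences, 6 of the 12 had a negative value too. Of the 12, 4 had all KO arrays below WT at P20, against 9.95% of all genes. Lgals3bp, Ifi27l2a, Ifit3, Usp18, Irgm2 and Plac8 had positive values at P20 (0.35, 0.22, 0.40, 0.48, 1.15 and 0.17), none past the test. That of Irgm2 rested on KO P20 replicate 2, at 11.5 against at most 8.12 on the other P20 arrays.

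The 12 largest positive differences ran from 0.57 to 0.79 with adjusted p from 0.375 to 0.584. Ice2, a subunit of the little elongation complex for small nuclear RNA genes, read 8.66, 8.82 and 8.96 in WT and 9.27, 9.82 and 9.72 in KO testes (0.79 ± 0.22). Its 3 probes did not all have the same sign. Twistnb, a subunit of RNA polymerase I, read 8.34, 8.50 and 8.69 against 8.82, 9.49 and 9.34 (0.71 ± 0.20), and Tcof1, which helps to transcribe ribosomal RNA genes, had 0.61 ± 0.14. For Tcof1, 1 of 3 probes had the opposite sign. Col3a1, a fibrillar collagen, read 8.20, 8.12 and 8.09 against 8.63, 9.67 and 8.37 (0.75 ± 0.27), with KO replicate 2 far above the rest. Wnt6, a secreted signal, read 10.1, 9.69 and 9.35 against 10.1, 10.6 and 10.6 (0.73 ± 0.18), and another of its probes gave 0.75 ± 0.17. Prelp, a proteoglycan of basement membranes, read 10.2, 9.79 and 9.93 against 10.5, 10.4 and 10.9 (0.66 ± 0.15, adjusted p = 0.382). Ramp2, the partner of the adrenomedullin receptor in vessels, read 10.0, 9.96 and 9.99 against 10.3, 10.9 and 10.5 (0.57 ± 0.12, adjusted p = 0.375), the tightest WT group of the 12. N4bp2, Cnih4, Nt5c, Mtrf1l and Rp9 completed the set, with 1 probe of opposite sign each for N4bp2, Cnih4 and Rp9. At P20, 10 of the 12 had a positive value and 2 had all KO arrays above WT, against 10.7% of all genes.

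**Figure D3:**
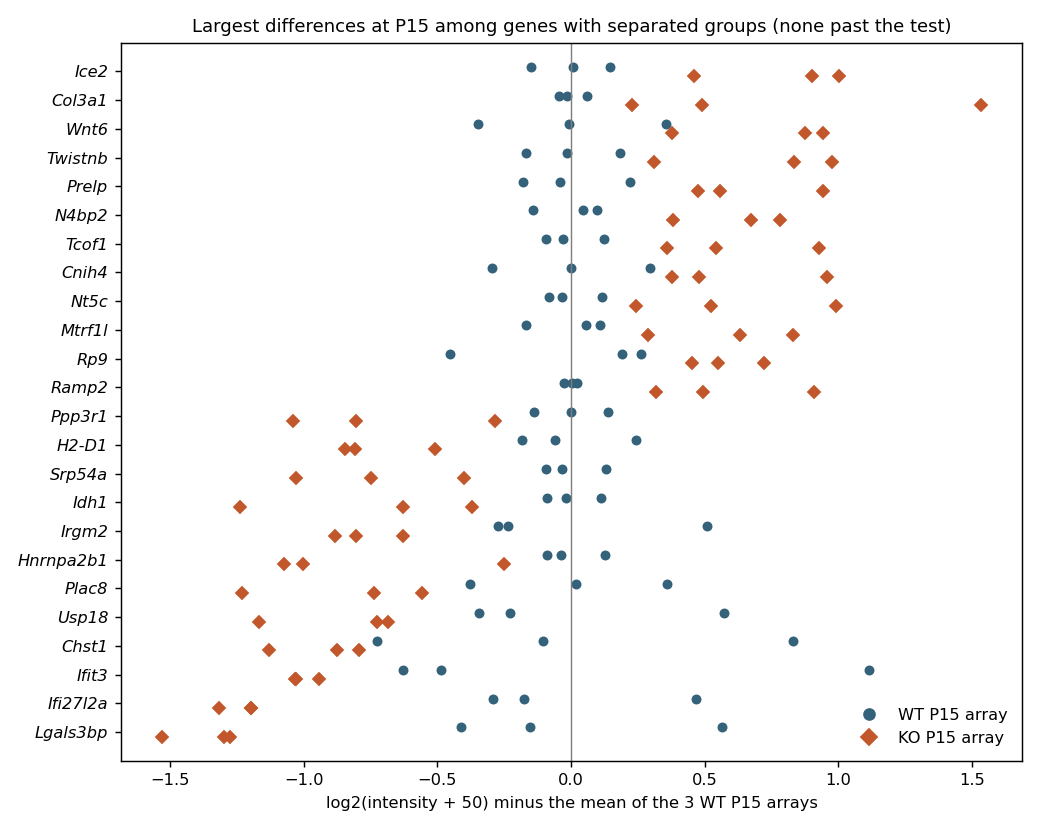
The 12 largest positive and 12 largest negative log2 differences among genes with separate groups at P15. The horizontal axis gives log2(intensity + 50) of each array minus the WT P15 mean (circles WT, diamonds KO, 3 each), and none of the 24 passed the test. KO points spread widely for Col3a1, Hnrnpa2b1 and Idh1, and WT points for Chst1, Ifit3 and Usp18.

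Genes of meiotic germ cells differed more within a genotype than between genotypes. The pachytene spermatocyte list (25 measured, 0 past the test) had a median of -9.3e-05, and its level was -0.44, -0.01 and 0.54 on WT replicates 1 to 3 and 0.46, -0.20 and -0.35 on KO replicates 1 to 3. Ldhc, the lactate dehydrogenase of spermatocytes and sperm, read 9.89, 11.3 and 12.9 in WT and 12.4, 10.1 and 9.66 in KO testes (-0.64 ± 0.77). Piwil1, the PIWI protein of pachytene piRNAs, read 9.22, 10.5 and 11.7 against 11.5, 9.72 and 9.85 (-0.13 ± 0.57). Hspa2, a chaperone needed to leave meiotic prophase, read 12.3, 12.8 and 13.7 against 13.6, 12.8 and 12.5 (0.05 ± 0.32). In each of these WT replicate 3 and KO replicate 1 were high and WT replicate 1 was low or lowest. The round spermatid, axoneme and piRNA lists were highest on the same 2 arrays and had medians of -0.014, -0.040 and -0.076, with 0 of 36, 30 and 22 members past the test.

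**Figure D4:**
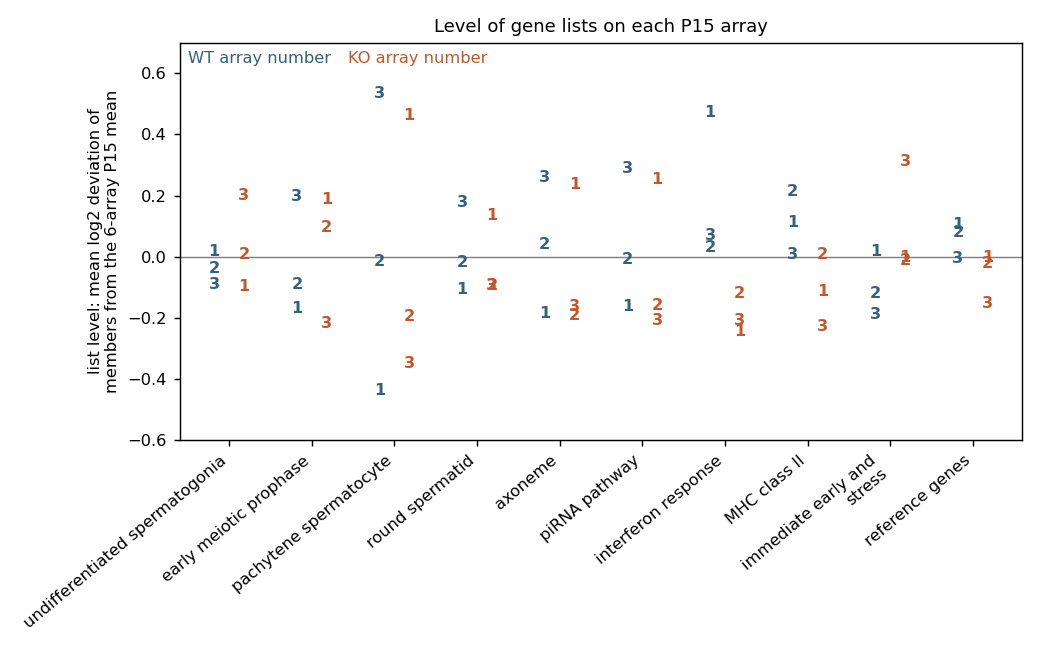
Level of 10 gene lists on each P15 array, as the mean log2 deviation of the members from their mean over the 6 arrays (numbers are replicate numbers, WT left and KO right in each column). WT replicate 3 and KO replicate 1 were highest for the pachytene, round spermatid, axoneme and piRNA lists, the KO arrays were all below the WT arrays for the interferon list, and KO replicate 3 was high for immediate early genes and low for reference genes.

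The early meiotic prophase list (33 measured, 0 past the test) had a median of 0.017. Rec114, which brings the break-forming enzyme SPO11 to chromosome axes, read 8.24, 8.31 and 8.22 in WT and 8.57, 8.72 and 8.81 in KO testes (0.45 ± 0.09, adjusted p = 0.375). Stag3, the meiotic cohesin subunit, and Syce3, of the synaptonemal complex, had 0.10 ± 0.12 and 0.0014 ± 0.17. Among genes of differentiating spermatogonia and meiotic entry (13 measured, 0 past the test, median 0.11), Crabp1, a retinoic acid binder, read 9.15, 9.13 and 8.95 against 9.24, 9.69 and 9.81 (0.50 ± 0.15). Rhox13, an X-linked homeobox gene of germ cells, read 11.0, 11.0 and 11.1 against 11.2, 11.5 and 11.6 (0.39 ± 0.14, adjusted p = 0.574). Sohlh1 and Dnmt3b, the brightest members, overlapped, with KO replicate 3 highest for both. Undifferentiated spermatogonia genes had a median of 0.055, and Zbtb16, the stem cell factor PLZF, read 8.14, 8.00 and 7.99 against 8.19, 8.18 and 8.34 (0.19 ± 0.06).

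Lists for division, DNA damage, apoptosis and replication held 0 members past the test. The meiotic division list of 31 genes had a median of -0.0044, with all KO arrays above WT for 3 members and below for 3 (9.68% each, against 6.19% and 4.89% of all genes). Plk1, the kinase that drives entry into division, read 9.88, 10.1 and 10.2 in WT and 10.4, 10.4 and 10.4 in KO testes (0.33 ± 0.18). Ttk, a kinase of the spindle checkpoint, had -0.13 ± 0.04. The DNA damage list of 30 genes had a median of -0.013. Rpa2, of the protein that coats single-stranded DNA, read 10.5, 10.6 and 10.4 against 10.4, 10.1 and 10.2 (-0.30 ± 0.10). Among 28 p53 targets and apoptosis genes (median 0.0049), the death receptor Tnfrsf10b read 8.09, 8.40 and 8.60 against 8.70, 8.80 and 9.04 (0.49 ± 0.17), and Casp8, the caspase that such receptors activate, read 9.15, 9.53 and 9.38 against 9.12, 8.99 and 8.62 (-0.44 ± 0.13). Neither passed, at adjusted p = 0.556 and 0.483. Among 26 DNA replication genes (median 0.026), Uhrf1, which maintains DNA methylation, read 10.8, 10.9 and 11.1 against 11.3, 11.3 and 11.2 (0.31 ± 0.08).

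**Figure D5:**
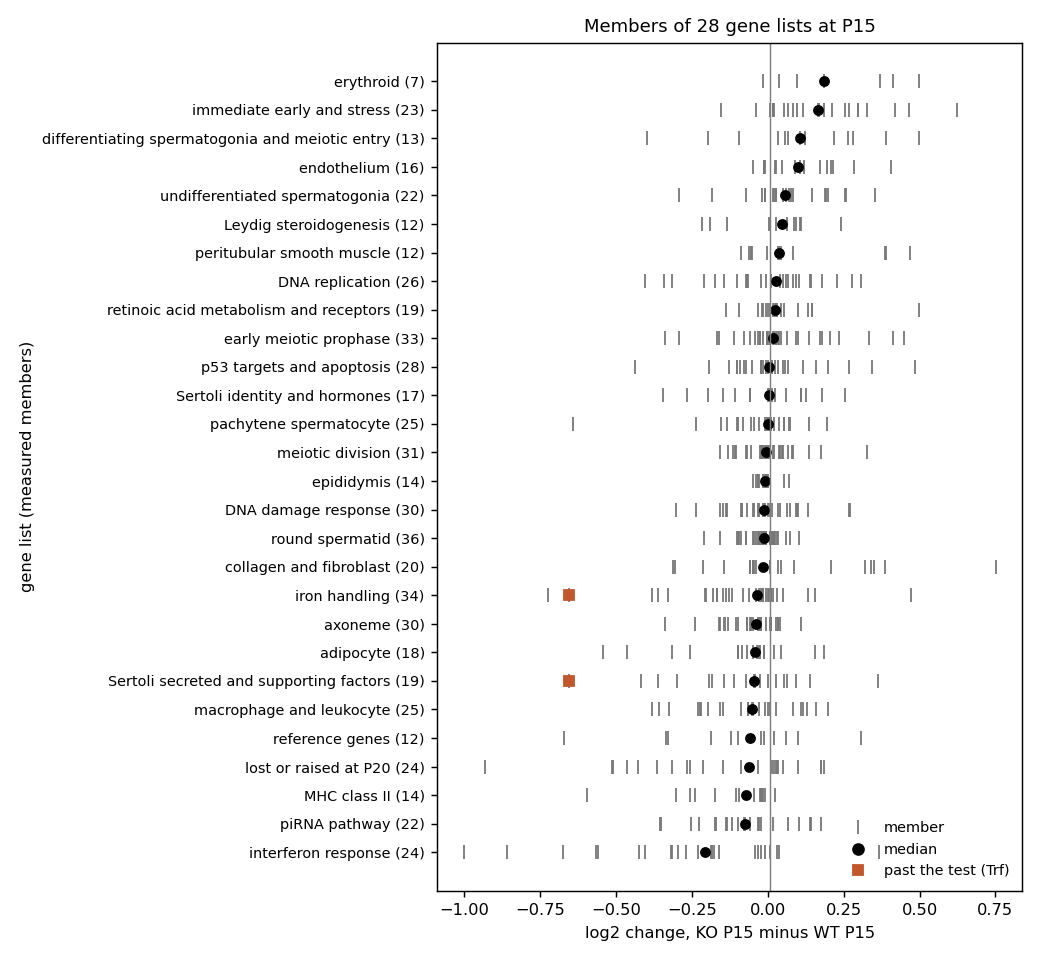
Log2 differences (KO minus WT at P15, horizontal axis) of the measured members of 28 gene lists (vertical axis, number of members in brackets), with the list median as a black point and members past the test as squares. Trf, in the iron and the Sertoli secreted lists, is the member past the test, and the interferon list has the lowest median (-0.21, against 0.0060 for all genes, grey line).

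The lists for somatic cells of the tubule held 1 call, that of Trf. The arrays carried whole testis, so the cells in which it fell were not measured. In the list of Sertoli secreted and supporting factors 0 of 19 rose, 1 fell and 18 did not pass. The median was -0.046 with 13 negative values, and all KO arrays lay below WT for 3 members (15.8%, against 4.89% of all genes). The level of the list was 0.03 to 0.08 on WT and -0.11 to 0.02 on KO arrays. Aard and Defb19, its brightest members, had log2 differences of -0.02 ± 0.06 and 0.03 ± 0.07. Vim, the intermediate filament of Sertoli and other somatic cells, read 12.1, 11.9 and 11.8 in WT and 11.7, 11.5 and 11.4 in KO testes (-0.36 ± 0.11, adjusted p = 0.483). Of 17 genes of Sertoli identity and hormones 0 passed and the median was 0.0046. Sox8, which acts with SOX9, had separate groups (8.87, 9.00 and 9.15 against 8.71, 8.78 and 8.73), and Inha, the inhibin alpha subunit, had -0.35 ± 0.17 with overlap. Cldn11, of the blood-testis barrier, differed by 0.02 ± 0.08.

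Retinoic acid metabolism genes, whose signal starts meiosis, had a median of 0.025 with 0 of 19 past the test. Interstitial lists also had 0 members past the test. Leydig genes had a median of 0.046, but their level swung from -0.25 to 0.25 on WT and from -0.47 to 0.29 on KO arrays, and Insl3, the Leydig peptide hormone, read 11.0, 11.3 and 11.2 against 11.2, 11.7 and 10.1. Of 16 endothelial genes 12 had a positive value, with a median of 0.099. Cldn5, of endothelial junctions, read 9.46, 9.52 and 9.31 in WT and 9.52, 9.73 and 10.2 in KO testes (0.41 ± 0.18). In the peritubular list (12 genes, median 0.036) Tpm2, a tropomyosin whose other 2 probes had the opposite sign, read 9.62, 9.91 and 9.57 against 10.1, 10.4 and 9.94 (0.47 ± 0.15). Among collagen and fibroblast genes Bgn, a small proteoglycan, read 12.5, 12.4 and 12.3 against 12.5, 12.8 and 12.7 (0.32 ± 0.09), while Sparc, a collagen-binding matrix protein, had -0.31 ± 0.17, both with separate groups. The median of that list was -0.017 and its level was highest on KO replicate 2.

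Markers of other tissue and of handling were read on the same arrays. Immediate early and stress genes had a median of 0.17, with 21 of 23 positive and 0 past the test, and their level was 0.31 on KO replicate 3 against -0.19 to 0.02 on all other P15 arrays. Without KO replicate 3 their median was 0.0705. Fos read 7.93, 7.91 and 7.84 in WT and 8.22, 8.48 and 8.37 in KO testes (0.46 ± 0.18, adjusted p = 0.599), and Egr1 read 11.0, 10.6 and 10.2 against 11.0, 11.1 and 11.6 (0.62 ± 0.30). Erythroid genes (7 measured, median 0.18) were lowest on WT replicate 2, where Hba-a1, an alpha globin, read 12.3 against 12.8 to 13.9 on the other arrays. Epididymal genes were near background, with 2 of 14 above it, and adipocyte genes had a median of -0.042. The mean level of reference genes was 0.10, 0.08 and -0.01 on the WT arrays and -0.00, -0.02 and -0.15 on the KO arrays. Among these genes the most negative difference was that of B2m (-0.67), the class I light chain described above. The part of these levels in the genotype differences was not tested.

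By position, 0 genes near Topaz1 or on the sex chromosomes passed. Of 84 genes within 5 Mb of Topaz1 0 passed, the median was 0.019, and the KO arrays lay above WT for 5 (5.95%) and below for 7 (8.33%), against 6.19% and 4.89% of all genes. Tcaim, whose nearest end lies 3.38 kb away, read higher by 0.18 ± 0.06 with separate groups, and Abhd5, a lipase activator 366 kb away, had -0.27 ± 0.08, with adjusted p of 0.556 and 0.479. For Tcaim, 1 of 2 probes had the opposite sign. Of 710 X-linked and 19 Y-linked genes 0 passed, with medians of 0.0032 and 0.0093. The lowest X-linked value was that of Erdr1, named after its values were seen, which read 11.5, 11.6 and 11.0 in WT and 7.43, 12.4 and 7.38 in KO testes. KO replicates 1 and 3 were thus at background and KO replicate 2 was the highest array (-2.31 ± 1.09, adjusted p = 0.671), and its second probe did the same at 7.49, 9.52 and 7.39.

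Probes that passed at P20 were also read on the P15 arrays. The P20 test uses a spread pooled over all 12 arrays, so the P15 arrays enter it. Probes with little spread at P15 could thus pass more easily, which by itself can raise the share with separate P15 groups. The shares given here are therefore not independent of how the probes were picked, and the size of this effect was not tested. At P20 472 probes passed (1.04% of those tested). Of the 331 that were higher in KO at P20, 204 had a positive value at P15, 39 (11.8%) had all KO arrays above WT, against 5.67% of all probes, and 0 passed. Of the 141 that were lower in KO at P20, 113 had a negative value at P15, 49 (34.8%) had all KO arrays below WT, against 5.58% of all probes, and 1 passed, ILMN_1257177. The median log2 difference of these 141 was -0.11 at P15 and -0.44 at P20. Separate P15 groups of the opposite direction were seen in 10 (3.02%) of the 331, against 5.58% of all probes. Among the 141 they were seen in 6 (4.26%), against 5.67% of all probes. Among 24 genes listed for their P20 differences 0 passed at P15. Chst1, Elfn2, Gstt2, Ifi213 and Rxylt1 had all KO arrays below WT at P15, which is 20.8% of the list against 4.89% of all genes. Gldc, the mitochondrial glycine decarboxylase, had them above, which is 4.17% against 6.19%. The list holds both genes lost and genes raised in KO at P20, so these are shares of the mixed list. Elfn2, a leucine-rich repeat membrane protein, read 7.58, 7.94 and 8.27 in WT and 7.55, 7.50 and 7.45 in KO testes (-0.43 ± 0.16). Gstt2, a glutathione transferase, read 8.14, 8.27 and 9.11 against 7.94, 7.95 and 8.10 (-0.51 ± 0.20). C2cd4a, which had the largest fall at P20, read 8.64, 9.24 and 10.3 against 8.28, 8.37 and 9.96, with KO replicate 3 inside the WT range. The genotype difference itself depended on age in 25 probes (0.0552% of those tested), each of which passed at P20 and 0 at P15. In 12 of the 25 the sign at P15 was opposite to that at P20. Several of these had P15 values so near 0 that their sign says little, such as Gm9903 (-0.0062 ± 0.064) and Kif9 (-0.027 ± 0.052). The largest P15 value of the 12 was that of Dnajc7, a co-chaperone singled out after its values were seen. It had -0.33 ± 0.07 at P15 and 0.36 ± 0.07 at P20.

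The number of probes that passed depended on KO P15 replicate 1. Without it 147 passed, 46 higher and 101 lower, of which 2 also passed with all arrays. Probes picked by leaving that array out are those where it tends to lie toward WT, so its position in them is no finding. Among named genes that passed, Hnrnpa2b1 had the largest fall (-1.04 ± 0.08, adjusted p = 0.0067), and Ppp3r1 (-0.92 ± 0.11), Rbbp7, a histone chaperone (-0.81 ± 0.12), and Mmadhc, of cobalamin trafficking (-0.80 ± 0.11), followed. Slc25a36, a pyrimidine nucleotide carrier of mitochondria, read 9.88, 9.83 and 9.78 in WT and 9.85, 9.17 and 9.14 in KO testes, with replicate 1 within the WT range. With all arrays, 2 of its 3 probes had the opposite sign. Lrif1, Luc7l2 and Zfp410 were the other named falls. With all arrays, the opposite sign was also seen in 3 of 5 probes of Lrif1, 2 of 5 of Luc7l2 and 1 of 7 of Zfp410. Hnrnpa2b1 and Rbbp7 had 2 of 5 such probes each, and Ppp3r1 had 1 of 2. The rises were led by Hoxc6, a homeobox gene of body patterning, with 9.13, 9.30 and 9.15 in WT and 9.17, 9.98 and 10.3 in KO testes. Cdkn1c, the imprinted inhibitor of the cell cycle, read 10.5, 10.2 and 10.2 against 10.4, 11.0 and 11.4, and Hoxc9 read 8.15, 8.23 and 8.07 against 8.12, 9.05 and 8.73. Wdr89, Ramp2, 4833420G17Rik, Aoc3 and Epop also passed without that array. With all arrays, the opposite sign was seen in 1 of 3 probes of Wdr89 and in 2 of 3 of 4833420G17Rik. Lgals3bp and Ifi27l2a had somewhat smaller falls without that array, -1.29 and -1.20 against -1.37 and -1.24 with all arrays. They did not pass without it (adjusted p = 0.0729 and 0.0564).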

How the data were processed

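The authors hybridised testis RNA, extracted with a column kit and treated with DNase I per the labels' protocols, to Illumina mouse bead arrays. They read it with BeadStudio per the submitters' processing notes (no version is given there). Deposited values are linear probe intensities, once without and once with quantile normalization. The normalized ones were used. Requantiling the former gave values that differed by at most 0.0124 in log2. They carry no detection p-values, control probes or slide positions, so detection filtering, neqc and a slide block were not run. As background is not subtracted, fold changes of dim probes are understated.

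Values were tested as log2(intensity + 50) with limma 3.58.1 in R 4.3.3. The fit had 4 group means over the 12 arrays (8 residual degrees of freedom), with Benjamini-Hochberg adjustment over 45281 probes and a threshold of 0.05. Each p-value sets a difference against the spread between biological repeats, 3 per group. That spread is pooled over the 4 groups, so that the P20 arrays enter it, and limma moderates it across probes. With the 6 P15 arrays alone 0 probes passed. The number of arrays limits the precision. Of the probes 34885 carry 1 gene symbol, 18 several and 10378 none in the annotation used. A gene is read by its brightest probe, which gave 19057 genes. An array's background ends at its mode plus 1.645 SD, the SD taken from values below the mode.

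Text names the probes past the threshold, the 12 largest positive and negative differences with separate groups and per list the brightest members and those of smallest p. It also names up to 8 genes each way without KO P15 replicate 1, 6 of largest difference between ages and genes listed for P20. Other list members were chosen for their role after their values were seen. Members and lists were chosen with earlier results of these data known. On simulated P15 data, the test recovered 24 of 67 probes changed by 0.5 in log2, 60 of 67 changed by 1 and 65 of 66 changed by 2. The simulation drew independent noise for each probe and changed only probes above background on all 12 arrays. Differences shared by the probes of an array, and changes in dim probes, were thus not covered. In it 6 unchanged probes passed. The probes of every size were changed together, so many passed and the adjusted threshold was easier to reach than in the real data, where 2 passed. The counts can thus overstate recovery where few probes differ.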

Additional observations from a re-analysis of the deposited data

Results flagged for a closer look

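For 6 named genes the KO minus WT log2 difference depended on age by the test of the difference itself, given here as the P20 minus the P15 value with limma's adjusted p. None of the 6 passed at P15, and each passed at P20. Adipoq, the adipocyte hormone adiponectin, had 1.53 ± 0.19 (adjusted p = 0.0304). It read 7.53, 8.05 and 7.89 in WT and 7.58, 7.51 and 7.60 in KO testes at P15, and 7.49, 7.52 and 7.85 in WT and 8.78, 9.02 and 8.87 in KO testes at P20. 4931406B18Rik had 1.24 ± 0.07 (adjusted p = 0.000142), with all P15 arrays between 7.41 and 7.53, at the background, and the KO arrays at P20 between 8.83 and 8.95.

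4930519G04Rik and Gldnos were at background on all P15 arrays and on the KO arrays at P20, and above it on the WT arrays at P20. Their age differences were -1.11 ± 0.13 and -1.02 ± 0.10 (adjusted p = 0.0267 and 0.0127). Ifi213, an interferon-inducible gene of the interferon list, had -0.90 ± 0.12 (adjusted p = 0.0474). It read 8.21, 8.30 and 8.56 against 8.01, 8.15 and 7.96 at P15, without overlap, and 9.03, 8.97 and 9.12 against 7.89, 7.84 and 7.74 at P20. Psg23, of the pregnancy-specific glycoprotein family, had 0.80 ± 0.09 (adjusted p = 0.0267), from -0.10 at P15 to 0.70 at P20.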

How the results depend on the processing

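At P15, 2 probes passed, 0 higher and 2 lower. Cyclic loess left 1, lower in KO. Normexp gave 6 (1 higher, 5 lower) and an intensity trend 7 (1 higher, 6 lower), among them Lgals3bp and Ifi27l2a (adjusted p = 0.0077 and 0.0024). The 6 P15 arrays alone gave 0. Leaving out each array in turn gave 1 to 147 in all, 0 to 46 higher and 1 to 101 lower. Of alternatives added after seeing the data, the pachytene level as a covariate gave 4 (1 higher, 3 lower), leaving out KO P15 replicates 2 and 3 gave 0, with the lone KO array assumed to vary like the other groups, and leaving out WT P15 replicate 1 and KO P20 replicate 2 gave 4, all lower. The cause of these shifts was not tested.

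The replicate block gave 1 probe at P15 and 1 for the difference between ages. Arrays of the same number did not deviate together (correlations of -0.34, -0.05 and -0.33 at P15 and of 0.23, -0.17 and -0.05 at P20), so the numbers were not taken as pairs. Trf lost its call with cyclic loess (adjusted p = 0.0649), with the 6 P15 arrays alone (0.708) and with the block (0.114). It also lost it without 1 of several single arrays (0.0695 to 0.157), without KO P15 replicates 2 and 3 (0.679) and without WT P15 replicate 1 and KO P20 replicate 2 (0.0872). In these fits its log2 difference stayed between -0.67 and -0.59. ILMN_1257177 lost its call with the 6 P15 arrays alone (0.499) and without KO P15 replicates 2 and 3 (0.119), with a log2 difference of -1.85 in both.

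The difference between ages, with 25 probes, gave 6 with cyclic loess, 15 with 75th percentile scaling, 40 with an offset of 200, 67 with an intensity trend and 2 to 69 without single arrays. With the pachytene level as a covariate it gave 100, without KO P15 replicates 2 and 3 it gave 1, and without WT P15 replicate 1 and KO P20 replicate 2 it gave 15. Over 157 named genes or probes and 26 settings, 3907 values kept direction and call, 136 moved by more than the spread, 21 gained and 11 lost a call, and 0 changed sign past a threshold. Probes near background, about as many as those above it, have differences that the unsubtracted signal limits.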

Other observations

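Beyond the lists, some dim or mid-level genes had small differences with little spread, and were singled out for their small p-values after these were seen. Mertk, the receptor by which Sertoli cells take up dying germ cells, read 9.35, 9.28 and 9.35 in WT and 9.11, 8.90 and 9.01 in KO testes at P15 (-0.32 ± 0.05, adjusted p = 0.372). Pacsin2, a membrane-bending protein of endocytosis, read 7.98, 7.98 and 8.00 against 7.70, 7.79 and 7.76 (-0.23 ± 0.03, adjusted p = 0.343), but 2 of its 3 probes had the opposite sign. Fut8, which adds core fucose to glycoproteins, and Msi2, an RNA-binding protein of stem cells and germ cells, were higher in value in KO testes, by 0.42 ± 0.07 and 0.38 ± 0.06 (adjusted p = 0.372 for both), and 4 of the 6 probes of Msi2 had the opposite sign. In all 4 genes the groups did not overlap.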
